A study of Mus musculus with 10 samples.

Results

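Of the 545 endogenous genes on an nCounter mouse immune panel, 10 were chosen by name as the receptors, nucleic acid sensors and targets of the interferon system: Ifnar1, Ifnar2, Ifngr1, Ifih1, Ddx58, Tmem173, Ifi204, Ifit2, Ifi35 and Bst2. They were read in microglia, the resident macrophages of the brain, sorted from the hippocampus of male Balbc mouse pups at postnatal day 14. The 5 control pups carried the numbers 1, 18, 40, 52 and 69. The 5 pups of the BDS group, numbered 11, 17, 24, 38 and 59, were taken from the dam for 15 min a day in brief daily separation, a schedule given as postnatal days 1 to 21, so it was still running at collection. Every pup came from its own litter and was read in 1 lane of barcode counts. The handling of control pups outside the separation is not given in the sources used here.

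Interferons are secreted proteins that warn cells of infection. Type I interferons bind a receptor made of the Ifnar1 and Ifnar2 chains, and interferon gamma binds one made of Ifngr1 and Ifngr2. Both receptors act through JAK kinases and STAT factors, which switch on target genes. Cells make type I interferon after sensors in the cytosol meet foreign nucleic acid: Ifih1 (MDA5) and Ddx58 (RIG-I) bind double-stranded RNA, Tmem173 (STING, Sting1 in RefSeq) relays the detection of DNA, and Ifi204 is a DNA sensor of mice. Several sensors are themselves interferon targets. In microglia the pathway is best known from viral infection, neurodegeneration and ageing.

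Of the 10 genes, 8 had a promoter entry in the RefSeq table (GRCm38.p6), which runs from 250 bases before the start of transcription to 50 after it. These windows were searched on both strands for GAAANNGAAA, the core of the element that interferon-activated factors bind, and for GAAANGAAA, the same pair of half-sites 1 base closer. The motifs do not contain each other, but their matches can overlap. Both sensors and 2 of the targets held a match, and these stretches are shown because they are the part of the pathway that interferon is known to switch on. Positions count from the first transcribed base as 1, the strand is that of the gene, and capitals mark the match. The Bst2 window, chr8:71537545-71537644 on the minus strand, holds 2 overlapping GAAANNGAAA matches at -130 to -115. The Ddx58 window, chr4:40239832-40239931 on the minus strand, holds GAAANGAAA at -60 to -52, and a second one, chr4:40239796-40239825, holds GAAANNGAAA on the opposite strand at 3 to 12. The Ifi35 window, chr11:101448414-101448443 on the plus strand, holds GAAANGAAA at 14 to 22. The Ifih1 window, chr2:62646206-62646235 on the minus strand, holds GAAANNGAAA at 33 to 42.
Bst2: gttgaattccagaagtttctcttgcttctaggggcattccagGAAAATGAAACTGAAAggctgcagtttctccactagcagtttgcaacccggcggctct
Ddx58, before the start: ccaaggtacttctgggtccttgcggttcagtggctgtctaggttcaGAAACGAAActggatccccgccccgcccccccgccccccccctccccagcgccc
Ddx58, after the start: agTTTCGATTTCctatggccagccggctag
Ifi35: cagaattcacaGAAATGAAAgtggaagtga
Ifih1: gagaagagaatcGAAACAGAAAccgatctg
Of all 32851 promoter windows of this length, 3.44% held GAAANNGAAA, 3.17% held GAAANGAAA and 6.27% held either. Neither set of letters was found in the windows of Ifnar1, Ifnar2, Ifngr1 or Ifit2. A match is a description of the sequence and was not tied to any count below.

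Endogenous counts per lane ran from 76237 to 968930, with a median of 340191 in control and 725666 in BDS lanes. The mean housekeeping signal was 1.23 higher on the log2 scale in BDS lanes, so depth moved with the groups. The shallowest lane was control 52, followed by control 69, and the deepest was BDS 17. All 11 microglia markers looked for, Cx3cr1, Csf1r and Itgam included, were above background and together took 33.1% to 40.1% of counts in control and 34.6% to 39.0% in BDS lanes. Of markers of other cells, T cell genes took 0.0234% to 0.110% in control and 0.0172% to 0.0369% in BDS lanes, with Cd3d, Cd3e, Cd2, Cd28 and Zap70 never above background. The 1 of those 10 genes that was tested, Cd3eap, encodes an RNA polymerase subunit despite its name. Markers of monocytes and border macrophages took 0.410% to 0.729% and 0.432% to 0.739%, and Cd163, Marco and Msr1 were among those never above it. Of that list Cd14 was above background in 10 lanes, at 2012 ± 617 and 2464 ± 554 normalized counts in control and BDS (SD, n = 5 each). Ccr2 was above it in 9, at 75.1 ± 15.4 and 113 ± 19.1, or 0.59 ± 0.23 on the log2 scale (SE; edgeR adjusted p = 0.137, unadjusted 0.0232). B cell markers took 0.227% to 0.333% and 0.310% to 0.413% of counts in control and BDS lanes, NK cell markers 0.0200% to 0.0341% and 0.0201% to 0.0290%, neutrophil markers 0.350% to 0.888% and 0.238% to 0.422%, and vascular markers 0.202% to 0.399% and 0.216% to 0.266%. The part of depth or of other cells in the results below was not tested, except where a value with lane depth as a covariate is given.

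In these microglia the receptor chains Ifnar1, Ifnar2 and Ifngr1, the sensor Ddx58 and the targets Ifi35 and Bst2 were above background in all 10 lanes, Ifih1 in 9 and Ifit2 in 7. Tmem173 was above it in 0 lanes and Ifi204 in 1. A lane's background limit was the mean of its negative probes plus 2 SD, 13.9 to 26.3 counts, and a gene was tested if it exceeded the limit in at least 4 lanes. The 8 tested members were compared between BDS and control pups to ask whether brief separation shifts the interferon system. By edgeR, 0 of the 8 had an adjusted p under 0.05, and so did 0 of all 283 tested genes (0%), where DESeq2 with the same scaling called 26 and limma 0. With an unadjusted p under 0.05, edgeR put 1 of the 8 higher in BDS and 0 lower, while over all tested genes 19.4% were higher and 8.83% lower. DESeq2 and limma with the same scaling also called 0 members after adjustment and 1 before it. Of the 8, 5 had a log2 fold change above 0, against 55.8% of all tested genes, and their median was 0.14 against 0.09. No member had groups that did not overlap, where 3.53% of tested genes were wholly higher and 1.06% wholly lower in BDS. In bulk RNA of sorted cells, fewer cells with a transcript and less of it per cell cannot be told apart.

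**Figure D1:**
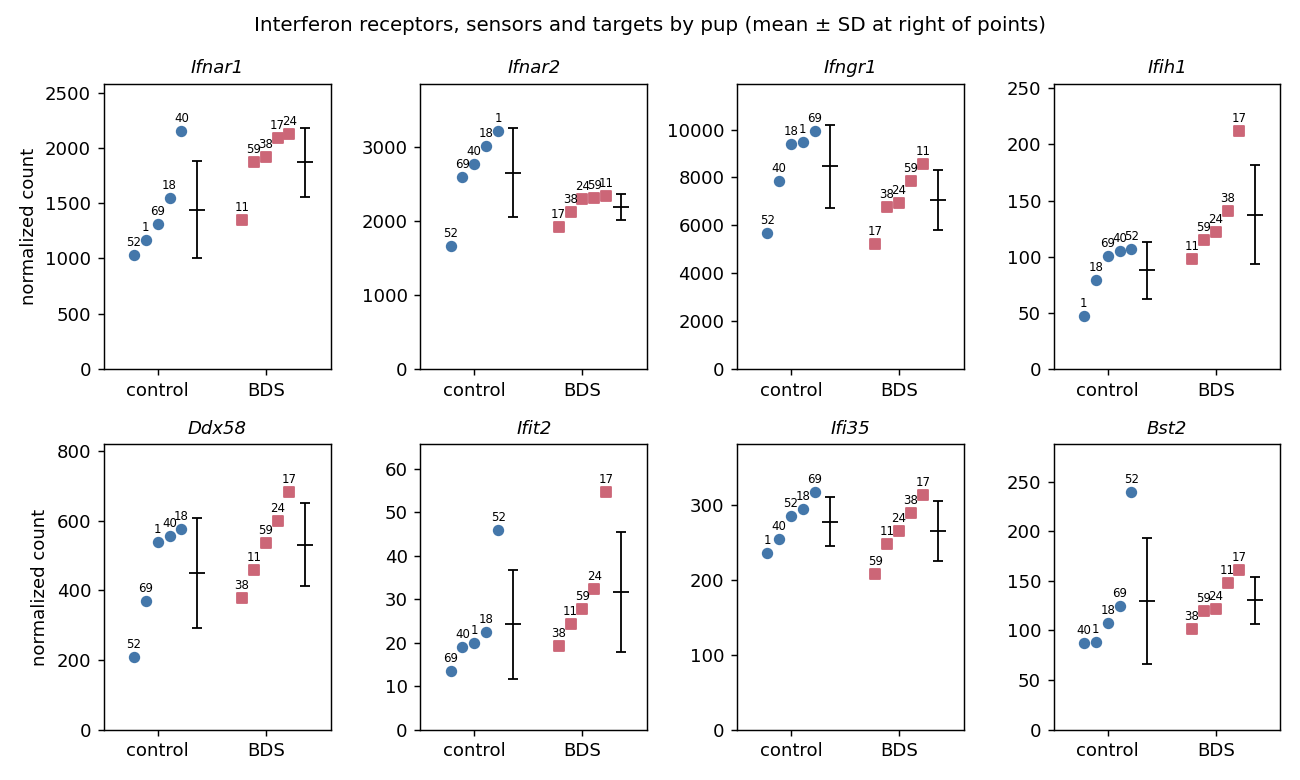
Normalized counts (vertical axis, linear, from 0) of the 8 tested members in each pup, control as circles and BDS as squares, labelled with the pup's number and sorted within a group; the bar at the right of each group is the mean ± SD (n = 5). The 2 groups overlap in every panel, with 4 of 5 control pups above all BDS pups for Ifnar2 and 4 of 5 BDS pups above all control pups for Ifih1.

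The 3 receptor chains did not share a direction. Values here are normalized counts, that is, counts scaled in each lane to the geometric mean of 6 housekeeping genes. Ifnar1, the chain that carries Tyk2, stood at 1030, 1164, 1309, 1547 and 2151 in control pups 52, 1, 69, 18 and 40, and at 1347, 1873, 1921, 2087 and 2122 in BDS pups 11, 59, 38, 17 and 24. Controls 52, 1 and 69 lay below every BDS pup, but control 40, the deepest control lane, lay above them all. The means were 1440.4 ± 441 (SD, n = 5) in control and 1869.9 ± 311 (n = 5) in BDS, and edgeR put the log2 fold change at 0.37 ± 0.22 (SE; adjusted p = 0.262, unadjusted 0.107). Once lane depth entered as a covariate, Ifnar1 stood at 0.03, and without control 40 at 0.56 (edgeR adjusted p = 0.0604).

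Ifnar2, the chain that binds interferon with high affinity and carries Jak1, went the other way. In control pups 52, 69, 40, 18 and 1 it stood at 1663, 2597, 2767, 3010 and 3212 normalized counts, and in BDS pups 17, 38, 24, 59 and 11 at 1919, 2118, 2290, 2303 and 2330. Of the 5 controls 4 lay above all BDS pups, and control 52 lay below them all. The mean was 2649.6 ± 599 in control and 2192 ± 174 in BDS (SD, n = 5 each), which edgeR put at -0.28 ± 0.19 on the log2 scale (SE; adjusted p = 0.316, unadjusted 0.163). The spread was wider in control pups, with a coefficient of variation of 22.6% against 7.93%. It includes control 52 at 1663, where the other 4 controls ran from 2597 to 3212. Without control 52 the log2 fold change was -0.40 (edgeR adjusted p = 0.0873, unadjusted 0.0114), and after adding lane depth to the fit it was -0.45 (edgeR adjusted p = 0.369, unadjusted 0.0353). In the authors' deposited table the fold change of Ifnar2 was 0.73 with an unadjusted p of 0.0240, and that of Ifnar1 was 1.15 with 0.2723. Those values rest on a scaling that leaves out Sdha: raw counts divided by the mean of the other 5 housekeeping genes gave the deposited values up to 1 constant, with an SD over lanes of 8.2e-06 on the log2 scale. The same choice in edgeR gave -0.45 for Ifnar2 (unadjusted p = 0.0227) and 0.20 for Ifnar1, where the median of all tested genes was -0.09.

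Ifngr1, the ligand-binding chain of the interferon gamma receptor, stood at 5686, 7850, 9379, 9462 and 9933 normalized counts in control pups 52, 40, 18, 1 and 69. In BDS pups 17, 38, 24, 59 and 11 it stood at 5213, 6781, 6914, 7840 and 8574. The shallowest control and the deepest BDS lane gave the lowest value of each group, and 3 controls lay above all BDS pups. On the log2 scale the difference by edgeR was -0.26 ± 0.19 (SE; adjusted p = 0.362), from 8462 ± 1738 in control to 7064 ± 1266 in BDS (SD, n = 5 each). Without control 52 it was -0.37 (edgeR adjusted p = 0.124), and with lane depth in the fit -0.28. The authors' deposited table gave Ifngr1 a fold change of 0.74 with an unadjusted p of 0.0473.

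A ratio of 2 genes within a lane does not depend on how the lane is scaled, so the chains were also set against each other. Probes differ in efficiency, so only the change of a ratio between lanes can be read, not its level. The log2 ratio of Ifnar1 to Ifnar2 was -1.46, -0.96, -0.36, -0.69 and -0.99 in control pups 1, 18, 40, 52 and 69. In BDS pups 11, 17, 24, 38 and 59 it was -0.79, 0.12, -0.11, -0.14 and -0.30. Of the 5 BDS pups 4 lay above every control and all 5 above the control mean, while BDS 11 fell among the controls. The difference was 0.65 ± 0.24 on the log2 scale (SE, n = 5 each; exact two-sided permutation p = 0.0317, adjusted over 4 ratios 0.127), so it did not pass after adjustment. The smallest p that 252 assignments allow is 0.00794.

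Depth and the ratio moved together in some lanes and not in others. Control 40, the deepest control lane, had the highest ratio among controls, and BDS 11, the shallowest BDS lane, had the lowest among BDS pups. Control 52, the shallowest lane, had the second highest control ratio at -0.69. Control 1 and BDS 11, with similar housekeeping means of 461 and 477, had ratios of -1.46 and -0.79. Depth differed between the groups, so single lanes cannot separate depth from group. With lane depth as a covariate the difference was 0.49 (permutation p = 0.0714). This p is approximate, not exact, because permuting the groups does not keep their tie to depth. Leaving out 1 pup gave differences of 0.51 to 0.79. The adjusted permutation p was under 0.05 in 1 alternative, without BDS 11 (0.0476), and not in the other 14. The log2 ratio of Ifngr1 to Ifnar1 was lower in BDS by 0.66 ± 0.30, at 1.92 against 2.57 (exact permutation p = 0.0794, adjusted 0.159). Its size was 0.33 with lane depth as a covariate (difference -0.33, permutation p = 0.262, approximate for the same reason). It was lowest in BDS 17, the deepest lane, at 1.32 and highest in control 1 at 3.02, while control 52, the shallowest, stood at 2.46. Without BDS 11 its difference was -0.85, with an adjusted exact permutation p of 0.0476, while the other 14 alternatives did not pass.

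**Figure D2:**
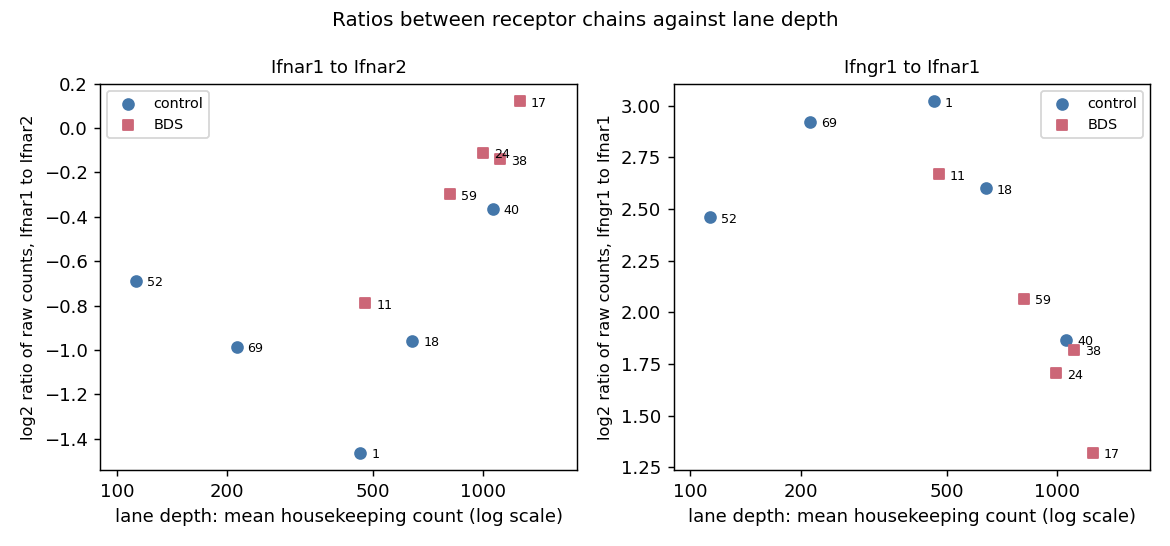
Log2 ratio of raw counts (vertical axis) of Ifnar1 to Ifnar2 (left) and of Ifngr1 to Ifnar1 (right) against the mean count of 6 housekeeping genes in the lane (horizontal axis, log scale), for 5 control pups (circles) and 5 BDS pups (squares) labelled by number. Control 40, as deep as most BDS lanes, has a ratio on the left of -0.36, and BDS 11, about as deep as control 1, has one of -0.79.

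The genes of Ifnar2, Il10rb, Ifnar1 and Ifngr2 follow each other in this order on chromosome 16 in RefSeq (GRCm38.p6), and all 4 are on the panel. Il10rb, a chain shared by the receptors of interleukin 10 and interferon lambda, was 0.81 ± 0.26 higher on the log2 scale (edgeR adjusted p = 0.0964), or 0.37 with lane depth in the fit. Ifngr2, the signalling chain of the interferon gamma receptor, had 0.34 ± 0.17 (edgeR adjusted p = 0.198), and 0.42 with lane depth. Of these 4 neighbours, Ifnar2 alone had a negative value, and none passed after adjustment.

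By likeness, measured as the SD over 10 lanes of the log2 ratio of raw counts and searched over the 196 other genes above background in every lane, Ifnar2 and Ifngr1 were close to each other. Their ratio had an SD of 0.16, and Ifngr1 had no closer gene. The gene closest to Ifnar2 was Jak2, a receptor kinase, with an SD of 0.15. Ifnar1 was closest to the integrin chain Itga6, with an SD of 0.13, followed by the kinase gene Irak4 at 0.16. The median SD over all 196 genes was 0.51 for Ifnar1 and Ifnar2 and 0.56 for Ifngr1. Ifih1 and Ifit2 were not above background in every lane and were left out. Likeness describes these 10 lanes, which differ in depth and group, and tests nothing.

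The sensor Ifih1 had the largest log2 fold change of the 8 tested members. It stood at 47.5, 79.2, 100.5, 105 and 107 normalized counts in control pups 1, 18, 69, 40 and 52, and at 98.0, 115, 122, 140.4 and 212 in BDS pups 11, 59, 24, 38 and 17. Of the 5 BDS pups 4 lay above all controls, and BDS 17 stood highest at 212. The value of control 52 came from 21 raw counts, below its limit of 24.4. The means were 88.0 ± 25.2 in control and 137 ± 44.3 in BDS (SD, n = 5 each), or 0.67 ± 0.28 on the log2 scale by edgeR (SE; adjusted p = 0.156, unadjusted 0.0333). It ranked 252 of 283 from the lowest, and 5 of 5 BDS pups exceeded the control mean. Without BDS 17 it was 0.46 (edgeR adjusted p = 0.330). Without the lanes of control 52 and 69 it was 0.82, and with lane depth in the fit 0.59 (edgeR adjusted p = 0.372). Under 9 other scalings that used endogenous or housekeeping genes it lay between 0.48 and 0.76.

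Ddx58, the sensor of uncapped viral RNA, stood at 209, 369, 538, 556 and 576 normalized counts in control pups 52, 69, 1, 40 and 18. In BDS pups 38, 11, 59, 24 and 17 it stood at 379, 459.6, 536, 599.6 and 683. The groups overlapped over most of their range, and the 2 lowest values came from the 2 shallowest lanes. By edgeR the log2 fold change was 0.22 ± 0.26 (SE; adjusted p = 0.584), but it was -0.18 with lane depth in the fit and -0.07 without the lanes of control 52 and 69. The gene nearest to Ddx58 by the SD of its log2 ratio was Pml, an interferon-inducible nuclear body gene, at 0.19. The log2 ratio of Ifih1 to Ddx58 differed by 0.33 ± 0.47 between the groups (exact permutation p = 0.5, adjusted 0.667). Both extremes of the 10 ratios were controls, control 52 at -0.93 and control 1 at -3.47. Without control 52 the difference was 0.67 and without the lanes of control 52 and 69 it was 0.94 (exact permutation p = 0.0179, adjusted 0.0714), while without control 1 it was 0.04.

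The other 2 sensors were at background. Tmem173 had raw counts of 15, 12, 12, 21 and 7 in control pups 1, 18, 40, 52 and 69 and of 12, 15, 10, 14 and 20 in BDS pups 11, 17, 24, 38 and 59. The means, 13.4 ± 5.13 in control and 14.2 ± 3.77 in BDS (SD, n = 5 each), lay near the 10 and 10.03 counts of the negative probes. No lane exceeded its limit, so Tmem173 was not detectable with this probe at this depth, which does not show that the gene is silent. With no filter, edgeR gave Tmem173 -1.38 ± 0.64 on the log2 scale (SE; adjusted p = 0.182, unadjusted 0.0444). That value comes from dividing similar raw counts by housekeeping means that were higher in BDS lanes. The authors' deposited table gives Tmem173 a fold change of 0.25, from means of 52 and 13, with 30% of lanes above its background.

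Ifi204 had raw counts of 5, 7, 9, 1 and 2 in control pups 1, 18, 40, 52 and 69 and of 1, 29, 9, 4 and 3 in BDS pups 11, 17, 24, 38 and 59. BDS 17, whose limit was 16.7, was the one lane above it. The authors' deposited table puts Ifi204 above background in 0% of lanes.

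**Figure D3:**
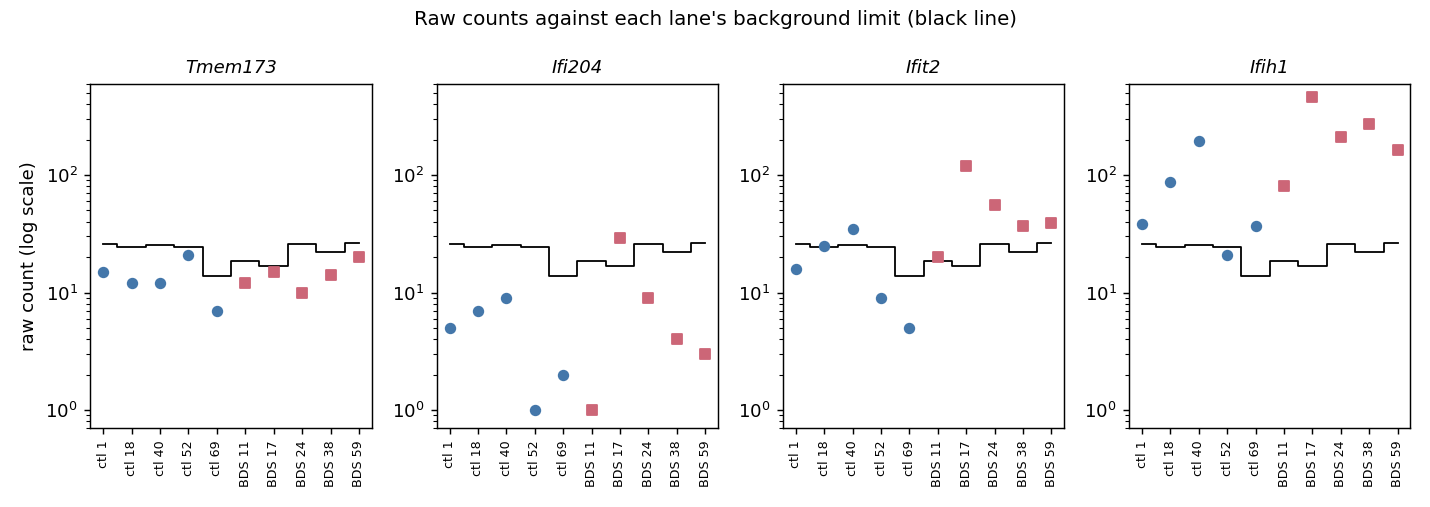
Raw counts (vertical axis, log scale) of Tmem173, Ifi204, Ifit2 and Ifih1 in each of the 10 lanes, control (ctl) as circles and BDS as squares; the black line is the lane's background limit, between 13.9 and 26.3 counts. Tmem173 lies under the line in every lane and Ifi204 in all but BDS 17, while Ifit2 lies under it in 3 control lanes and Ifih1 in control 52.

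Among the targets, Ifit2, which encodes a protein that curbs viral translation, was the one nearest to background. Its raw counts were 16, 25, 35, 9 and 5 in control pups 1, 18, 40, 52 and 69, of which controls 18 and 40 were above their limits. In BDS pups 11, 17, 24, 38 and 59 they were 20, 119, 56, 37 and 39, all above the limits. Ifit2 was thus detected in 5 BDS lanes and 2 control lanes. Controls 18 and 40 were the deepest control lanes. BDS 11, with 341679 endogenous counts, was about as deep as control 1, with 340191, but their limits differed. BDS 11 had 20 raw counts against a limit of 18.6, and control 1 had 16 against 26.0. The part of depth and of the limits in the detection of Ifit2 was not tested. Scaled, the values were 20.0, 22.5, 19.0, 45.9 and 13.6 normalized counts in controls and 24.2, 54.7, 32.4, 19.2 and 27.7 in BDS pups, in the same order. The groups overlapped, with BDS 17 highest and control 52 next on only 9 raw counts.

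For Ifit2 edgeR gave 0.52 ± 0.37 on the log2 scale (SE; adjusted p = 0.346), with means of 24.2 ± 12.6 and 31.6 ± 13.8 normalized counts (SD, n = 5 each) in control and BDS. It was 0.22 without BDS 17, 0.72 when control 52 was left out and 0.61 after lane depth was added. With the lane's negative mean subtracted it was 1.52 (limma adjusted p = 0.128, unadjusted 0.00758), a setting in which the 2 lowest controls were set to 1 count. The log2 ratio of Ifit2 to Ifnar1 differed by -0.07 ± 0.47 (exact permutation p = 0.897, adjusted 0.897), and without control 52 by 0.31.

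Ifi35, an interferon-induced protein of the cytosol, stood at 236, 255, 286, 295 and 318 normalized counts in control pups 1, 40, 52, 18 and 69, and at 209, 248, 265, 290.02 and 314 in BDS pups 59, 11, 24, 38 and 17. It had the smallest spread of the 8 tested members in control pups, with a coefficient of variation of 11.7%. By edgeR the difference was -0.06 ± 0.18 on the log2 scale (SE; adjusted p = 0.843), with a sign that turned under 2 of 9 other scalings. The gene most like it was Emr1, which encodes the macrophage antigen F4/80, with an SD of 0.19.

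Bst2 (tetherin), which holds budding virus at the cell surface, stood at 87.5, 88.7, 107, 125 and 239.7 normalized counts in control pups 40, 1, 18, 69 and 52. In BDS pups 38, 59, 24, 11 and 17 it stood at 102, 119, 122, 148 and 161. Control 52 lay above all other pups, and controls 40 and 1 lay below all BDS pups. By edgeR the difference was 0.07 ± 0.29 on the log2 scale (SE; adjusted p = 0.901), with a sign that turned under 3 of 9 other scalings. It was 0.37 without control 52, 0.46 without the lanes of control 52 and 69 and 0.55 with lane depth as a covariate (edgeR adjusted p = 0.264, 0.188 and 0.372). Bst2 was closest to Batf3 by the SD of its log2 ratio, 0.24.

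**Figure D4:**
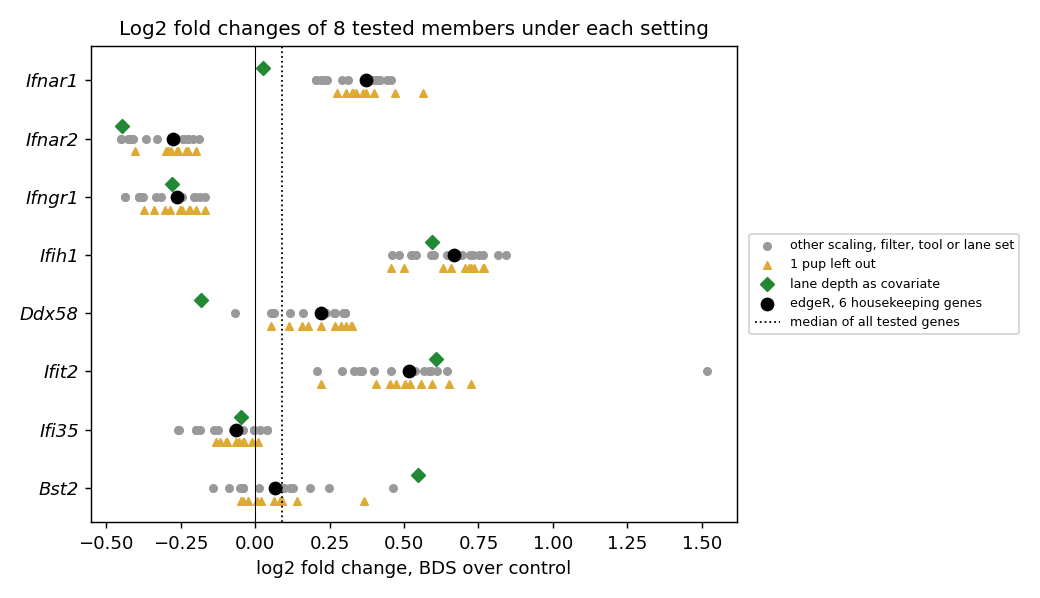
Log2 fold change, BDS over control (horizontal axis), of the 8 tested members with all 10 pups and 6 housekeeping genes (black), with 1 pup left out (triangles), with lane depth as a covariate (diamonds) and under the other scalings, filters, tools and lane sets (grey), scaling to positive controls alone left out; the dotted line is the median of all tested genes, 0.09. Ifih1 and Ifit2 lie above 0 and Ifnar2 and Ifngr1 below 0 under each setting drawn, whereas Ddx58, Ifi35 and Bst2 lie on both sides.

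One BDS pup stood highest in its group for 5 of the 8 tested members: BDS 17, for Ifih1, Ddx58, Ifit2, Ifi35 and Bst2, the sensors and targets that were tested. The same pup was lowest in its group for the receptor chains Ifnar2 and Ifngr1. Among controls, control 52 was lowest for 4 members (Ifnar1, Ifnar2, Ifngr1 and Ddx58) and highest for 3 (Ifih1, Ifit2 and Bst2). These were the deepest and the shallowest of the 10 lanes, with 377 genes above the limit in BDS 17 and 201 in control 52. How often these lanes were highest or lowest over all tested genes was not counted.

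Other genes of the pathway numbered 42 on the panel, of which 32 were tested. Of these 21 were higher and 11 lower in BDS, with 6 higher and 3 lower at an unadjusted edgeR p under 0.05 and 0 after adjustment over all genes. Over all 283 tested genes 55.8% were higher, and 19.4% were higher and 8.83% lower at that unadjusted p, so these counts lie near the background. Their median log2 fold change was 0.24 against 0.09 over all genes, and Socs1 counts both among targets and inhibitors below. The ligand genes Ifna1, Ifna2, Ifnb1 and Ifng were not above the limit in enough lanes to be tested. Of 6 receptor kinases and STAT genes 3 were higher and 3 lower. Jak1, the kinase bound to Ifnar2, stood at -1.19 ± 0.53 on the log2 scale (SE; edgeR adjusted p = 0.156), but -0.27 without control 52 and 0.30 with lane depth.

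Of the other nucleic acid sensors 2 of 4 were tested. Tlr9, an endosomal DNA sensor, stood at -0.41 ± 0.17 on the log2 scale (edgeR adjusted p = 0.152) and Tlr3, an endosomal RNA sensor, one of 0.45 ± 0.29 (edgeR adjusted p = 0.290), or -0.08 with lane depth. All 8 adaptors, kinases and regulatory factors on the panel were tested, with 5 higher and 3 lower. Of these Tbk1, the kinase below Ifih1, Ddx58 and Tmem173, was at 0.56 with lane depth in the fit against 0.68 without it (edgeR adjusted p = 0.0642), and Irak4 at 0.30 against 0.58 (edgeR adjusted p = 0.126). Of 10 other targets tested 8 were higher, among them the chemokine gene Cxcl10 at 1.09 ± 0.46 (edgeR adjusted p = 0.152), which was 0.71 without BDS 17 and above the control mean in 3 of 5 BDS pups. The transporter gene Tap1 had the smallest p of the 10 targets, at -1.80 ± 0.59 (edgeR adjusted p = 0.101), and was -0.31 with lane depth. Tap1 was above background in 4 lanes, the fewest that the filter allows. Its means were 48.2 ± 57.0 and 11.3 ± 2.49 normalized counts in control and BDS (SD, n = 5 each). With control 52 or BDS 17 left out it had no value. Of 5 inhibitor genes 3 were higher. Socs3, which blocks JAK kinases, was at 175 ± 89.3 and 329 ± 142 normalized counts (SD, n = 5 each), or 0.94 ± 0.37 on the log2 scale (edgeR adjusted p = 0.132), and the phosphatase gene Ptpn6 had -0.23 ± 0.17 (edgeR adjusted p = 0.377).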

How the data were processed

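Per the series' design text, 2 ng of RNA per sample from sorted microglia went through reverse transcription and 5 PCR rounds before hybridization to the panel. The deposited raw table holds counts of barcodes per probe, with 8 negative and 6 positive control probes and 14 housekeeping genes. The authors' deposited second table holds values normalized to positive controls and housekeeping genes, treated as a score because they are rounded. It also gives, per the file headers, the percent of samples above background, a fold change (a ratio of group means) and an unadjusted p-value. The counting software is not given in the sources used here.

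Lanes were scaled by 6 housekeeping genes (Tbp, Sdha, Polr1b, Oaz1, Gapdh and Alas1; geometric mean). Genes above the limit in at least 4 of 10 lanes (40%) were fitted with edgeR 4.0.16 in R 4.3.3 (quasi-likelihood, two-sided, Benjamini-Hochberg over 283 genes). SE was taken as the size of the log2 value divided by the root of its F statistic. Ratios used raw counts plus 1. DESeq2 1.42.0 and limma 3.58.1 (log2 with a pseudocount of 1 or 10) were alternatives. Scripts were tested on simulated data. Counts carry no molecular identifiers, and each p-value measures variation among pups.

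All 10 members were named, and of each other pathway list up to 2 tested genes with the smallest p, of which 1 is not reported here. The ratio of Ifi204 to Tmem173 was not run because both were under the filter. Members and lists were chosen with earlier results of these data known. Added after seeing the data were the fits without control 52 and 69, the depth covariate for ratios and counts at an unadjusted p.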

Additional observations from a re-analysis of the deposited data

Results flagged for a closer look

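In 20 groups of 5 pups (10 genes in each of 2 groups), 3 single values stood apart by more than 0.71 of their group's range. Chance would give about 1 in 20 if the values were normal and the groups independent. All 3 were high values in control 52, the shallowest lane, so they are not independent of each other. How often such values occur over the other genes of the panel was not counted, so an excess for these genes is not shown. Tmem173 stood there at 107 normalized counts, the next control at 19.0, on 21 raw counts that did not exceed the lane's limit of 24.4. Ifit2 stood at 45.9, the next at 22.5, on 9 raw counts, also under the limit. Bst2 stood at 239.7, the next at 125, on 47 raw counts, above it. The part of depth in these values was not tested.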

How the results depend on the processing

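With 30 alternatives on the counts, edgeR's 0 genes at an adjusted p under 0.05 became 26 and 30 with DESeq2 (housekeeping and own factors), 10 with genes above the limit in all lanes, 1 with background subtracted, 14 when scaled to positive controls alone, and 15 and 12 when Polr1b or Gapdh was dropped; leaving out 1 pup gave 0 to 47, with 47 without control 40 and 19 without BDS 11. The count of members called stayed at 0 in 29 of the 30. It was 1 with positive controls alone, where Ifit2 reached 1.95 on the log2 scale (edgeR adjusted p = 0.0344) and the median of all tested genes was 1.35, so Ifi35, Ifnar2 and Ifngr1 turned positive there too (1.25, 0.80 and 0.84). At an unadjusted p under 0.05 the member count ran from 0 to 4 over the pups left out, with 4 without control 52 (2 higher, 2 lower).

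Of 238 values of single members, 17 turned sign. For Bst2 these were -0.042 with DESeq2's own factors, -0.039 with TMM, -0.050 with median-of-ratios factors, -0.089 with the authors' values and -0.14 without Sdha, with pups left out spanning -0.049 to 0.37. For Ddx58 they were -0.18 with lane depth and -0.067 without control 52 and 69. For Ifi35 they were 0.040 with all housekeeping genes, 0.039 without Polr1b and 0.016 without control 52 and 69, with pups left out spanning -0.13 to 0.011. The ratio of Ifit2 to Ifnar1 turned to 1.23 with background subtracted, 0.53 with lane depth and 0.27 without control 52 and 69, and spanned -0.30 to 0.31 over pups left out. The ratios of Ifnar1 to Ifnar2 and of Ifngr1 to Ifnar1 spanned 0.51 to 0.79 and -0.85 to -0.51 over pups left out. The cause of these turns was not tested. No paired analysis was possible because the groups share no pup numbers. Tmem173 in every lane, Ifi204 outside BDS 17 and Ifit2 in 3 control lanes did not exceed the background limit, and the part of depth in this was not tested.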
